A study of Homo sapiens with 6 samples.

Results

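The MYC window is the stretch of human chromosome 8 from 128.7 to 131.4 Mb (hg19, as all positions here), which runs from just before MYC, whose start was set at 128.748 Mb, to 2.65 Mb beyond it. Its members are all peaks of the 4 deposited peak lists that fall there. These were 4 of 1701 RUNX1 peaks in DMSO, 21 of 10319 in AI-10-49, 145 of 67087 H3K27ac regions in DMSO and 141 of 66350 in AI-10-49. Members were chosen by position alone. Each was placed by the distance of its summit from the MYC start. The zones were MYC itself (within 5 kb), PVT1 (128.81 to 129.11 Mb), the sites near +0.18 and +0.52 Mb (within 20 kb), and the blood enhancer cluster (130.4 to 130.75 Mb, +1.652 to +2.002 Mb from MYC).

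The cells were ME-1, a human acute myeloid leukemia line with inv(16), the chromosome inversion that fuses CBFB to MYH11. Both groups carry the fusion protein, CBFβ-SMMHC, which binds the transcription factor RUNX1. One group received AI-10-49, a small molecule that blocks this binding, at 1 µM, the other DMSO, each for 6 h. Chromatin was precipitated with an antibody to RUNX1 or to acetylated lysine 27 of histone H3 (H3K27ac), a mark of active promoters and enhancers. With 1 library for each antibody and condition, in 1 cell line, the spread between replicates is unknown and no test between conditions was made.

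MYC encodes a transcription factor that pairs with MAX and drives ribosome production, metabolism and cell division. Its RNA and protein are short-lived, so its level follows the activity of its enhancers closely. In blood cells many of these enhancers lie far downstream, past the long noncoding RNA gene PVT1, and loop to the MYC promoter. The blood enhancer cluster is a row of separate elements bound by blood transcription factors, and MYC expression of blood stem cells and of myeloid leukemias depends on it. RUNX1 binds DNA together with CBFβ and can recruit activating or repressing complexes. In the RefSeq gene order (GRCh38.p14, used for names only) PVT1, CCDC26, GSDMC, CYRIB (also FAM49B) and ASAP1 follow MYC. The question addressed here was how RUNX1 occupancy and acetylation at MYC and its distal enhancers differed between inhibitor and DMSO. The study's own enhancer names and boundaries were not used here, so elements are named by distance, and MYC RNA was not analysed here.

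Values are given as fragments per M (mega) reads, written per M. This is the number of ChIP fragments over the peak summit, recovered from the deposited fold enrichment and −log10 p, divided by the recovered library size in M reads. The libraries held 33.8 M (RUNX1, DMSO), 31.5 M (RUNX1, AI-10-49), 35.7 M (H3K27ac, DMSO) and 37.0 M reads (H3K27ac, AI-10-49). Intervals are exact and 95% wide (Poisson for fragments, conditional binomial for ratios), and cover counting error only. Fragments were 1.13 times (RUNX1) and 1.09 times (H3K27ac) longer in the AI-10-49 libraries, which raises a summit count by at most about that factor.

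RUNX1 was listed at 4 places in DMSO, and each of these was listed again in AI-10-49 with 2.82 to 4.36 times as many fragments per M. They lay at +182 kb inside PVT1, at +516 kb, at +1846 kb in the blood enhancer cluster and at +2549 kb beyond it. In AI-10-49 another 17 sites appeared between the MYC promoter and +2543 kb. No DMSO site of the window was absent from the AI-10-49 list. For reference, 91.2% of all DMSO RUNX1 peaks overlapped an AI-10-49 peak.

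**Figure D1:**
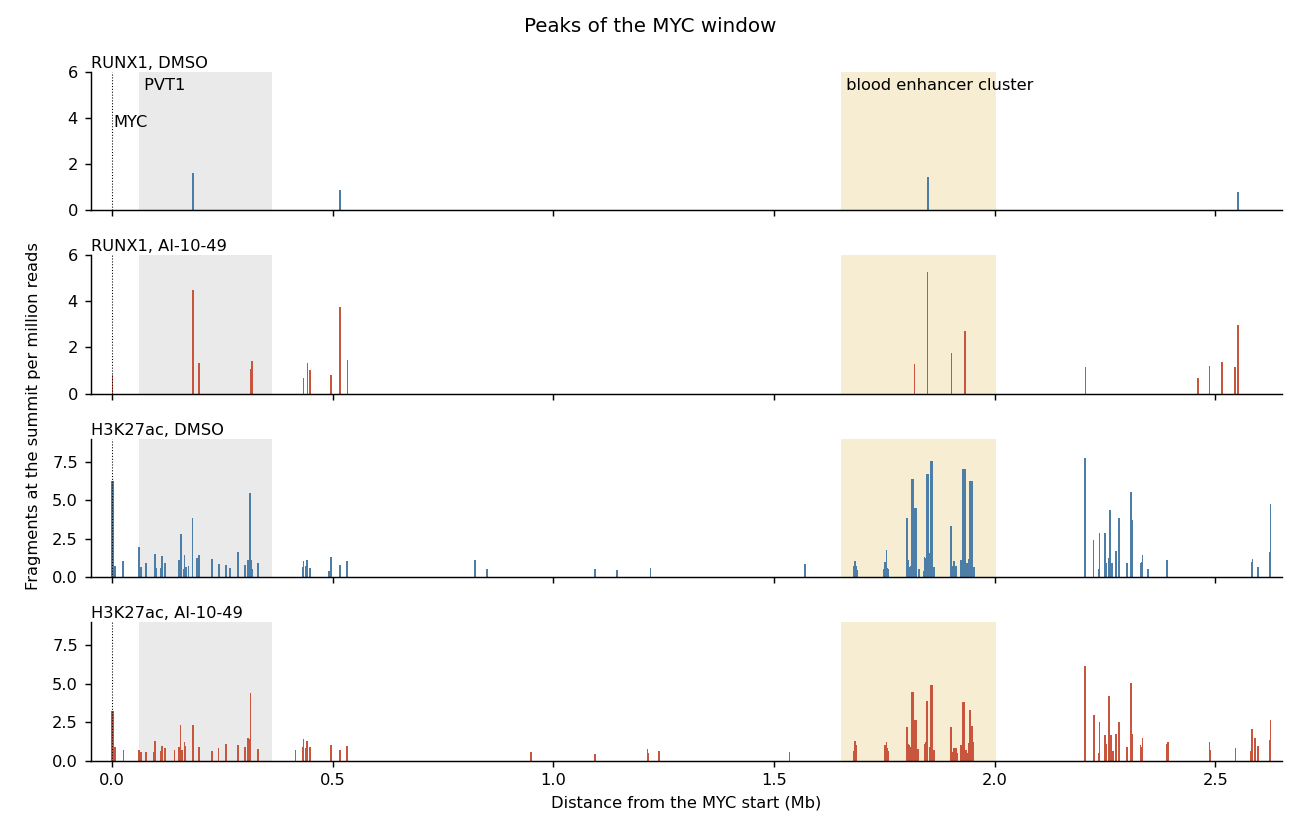
Peaks of the MYC window in the 4 lists, with distance from the MYC start in Mb on the x axis and fragments at the summit per M reads on the y axis. Each bar is 1 peak, with narrow peaks widened to be visible, the grey band is PVT1 and the yellow band the blood enhancer cluster. RUNX1 has 4 bars in DMSO and 21 in AI-10-49, while H3K27ac has 145 and 141 bars at largely the same places.

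The +182 kb site, inside PVT1, had the most RUNX1 fragments of the 4 in DMSO. Its interval was chr8:128929798-128930033 in DMSO and chr8:128929516-128930351 in AI-10-49, 236 bp and 836 bp wide. The summit held 54 fragments in DMSO and 142 in AI-10-49, that is 1.6 (1.2 to 2.09) and 4.51 (3.79 to 5.31) per M, a ratio of 2.82 (2.05 to 3.93). In the AI-10-49 list it ranked 171 of 10319 by fragments. The summits of both lists were 12 bp apart. Its neighbour at +196 kb (chr8:128944088-128944269, 42 fragments) was listed in AI-10-49 alone.

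The +516 kb site, between PVT1 and the gene-poor stretch that follows, had the largest ratio of the 4. It held 29 fragments in DMSO (0.859 per M, 0.575 to 1.23) and 118 in AI-10-49 (3.74 per M, 3.1 to 4.48), a ratio of 4.36 (2.88 to 6.79). In the AI-10-49 list it ranked 318 of 10319 by fragments. The peak at chr8:129263385-129263860 was 476 bp wide in AI-10-49 and 172 bp in DMSO, with summits 89 bp apart. A second site 16.3 kb further on, at +532 kb (chr8:129279803-129280162), held 46 fragments in AI-10-49 alone.

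The +1846 kb site, in the middle of the blood enhancer cluster, was the strongest RUNX1 site of the window in AI-10-49. At chr8:130593849-130594801 it held 166 fragments (5.27 per M, 4.5 to 6.13), against 48 in DMSO (1.42 per M, 1.05 to 1.88), a ratio of 3.71 (2.67 to 5.22). It ranked 77 of 10319 in AI-10-49, among the top 0.746% of that list. The summits lay 27 bp apart, and the peak was 953 bp wide after 450 bp in DMSO.

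The +2549 kb site lay far beyond the cluster and, unlike the other 3, overlapped no H3K27ac region of either list. At chr8:131296644-131297281 it held 27 fragments in DMSO (0.799 per M, 0.527 to 1.16) and 94 in AI-10-49 (2.98 per M, 2.41 to 3.65), a ratio of 3.73 (2.41 to 5.96). Its rank in the AI-10-49 list was 628 of 10319. The contrast with +516 kb is slight, since there only the flanks of the AI-10-49 RUNX1 peak overlapped regions and its summit lay in none. Of the 4 DMSO RUNX1 peaks, 2 overlapped a DMSO H3K27ac region. At all 4 sites the intervals of both conditions did not meet, so the differences exceeded counting error.

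The whole RUNX1 list was stronger in AI-10-49, which bears on all 4 ratios. Of the 1551 DMSO peaks found in both lists, 53.2% had a ratio of at least 2, and so did 4 of 4 here. The genome-wide median ratio was 2.1 (quartiles 1.52 and 2.97). The +182 kb ratio lay within these quartiles, and the ratios at +516, +1846 and +2549 kb lay above the upper one. The 4 ratios of deposited fold enrichments were 2.83, 4.15, 3.96 and 3.01, in order of position. How far a general difference in yield between the 2 precipitations enters these values was not tested.

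**Figure D2:**
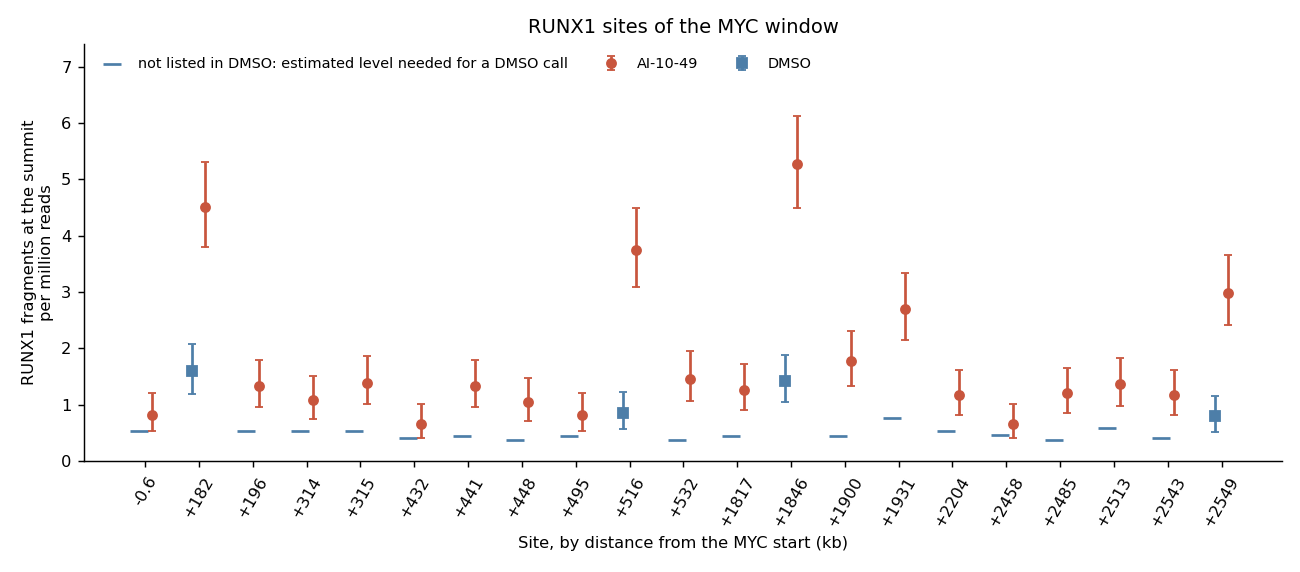
RUNX1 fragments at the summit per M reads (y axis) at the 21 sites, in order of distance from the MYC start in kb (x axis). Circles are AI-10-49 and squares DMSO, with 95% Poisson intervals, and short lines give the estimated level that a DMSO call would have needed at the other 17 sites. The circles at +182, +516, +1846 and +2549 kb stand clear of the DMSO squares.

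Sites in the AI-10-49 list alone made up 17 of the 21 (81.0%), close to the 85.1% of the whole list, so their share was ordinary. They held 0.666 to 2.7 fragments per M with a median of 1.21. The strongest 3 lay in the blood enhancer cluster and near +0.52 Mb. At +1931 kb (chr8:130678635-130678995) RUNX1 had 85 fragments, 2.7 per M (2.15 to 3.33), rank 806 of the list. At +1900 kb (chr8:130648211-130648608) it had 56 fragments, 1.78 per M (1.34 to 2.31). The +532 kb site had 1.46 per M (1.07 to 1.95). A further cluster site at +1817 kb (chr8:130564664-130564933) had 40 fragments and 1.27 per M.

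A weak RUNX1 site was listed at the MYC promoter itself in AI-10-49. Its summit was at −0.61 kb (chr8:128747324-128747637), with 26 fragments, 0.825 per M (0.539 to 1.21), rank 7048 of 10319. In the rest of PVT1 a pair of sites 1.55 kb apart lay at +314 kb (chr8:129061304-129061686, 34 fragments) and +315 kb (chr8:129062980-129063243, 44 fragments). Between PVT1 and +0.50 Mb there were 4 sites, at +432, +441, +448 and +495 kb, with 21, 42, 33 and 26 fragments. No RUNX1 site was listed over the next 1285 kb, from +532 to +1817 kb.

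Beyond the cluster 6 sites were listed in AI-10-49. The first, at +2204 kb (chr8:130952000-130952276, 37 fragments), lay in the strongest H3K27ac region of the window. The other 5 formed a loose row from +2458 to +2549 kb, with 21, 38, 43, 37 and 94 fragments. This row includes the +2549 kb site that was already present in DMSO.

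Whether these sites could have been listed in DMSO was estimated from the weakest call of that list (−log10 p of 4.98). With the background of each site carried over by depth and fragment length (1.08 times), a DMSO call would have needed 13 to 26 fragments, or 0.385 to 0.77 per M. All 17 sites exceeded this in AI-10-49 after division by the ratio of fragment lengths, and for 14 the lower bound of the interval did too. The exceptions were the promoter site and the sites at +432 and +2458 kb. At the 4 sites in both lists the background was 1.02 to 1.39 times higher in DMSO, and with 1.39 throughout all 17 still exceeded the level. These sites were members only because they had passed a similar call in AI-10-49 (lowest −log10 p of that list 4.24). Exceeding the level was thus largely set in advance and does not show how much RUNX1 they held in DMSO. The level is an estimate, and a missing DMSO call gives no count for DMSO.

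RUNX1 sites up to the end of the cluster all touched acetylated regions. By an overlap of 1 bp or more, all 15 met an H3K27ac region of at least 1 condition, while 2 of the 6 sites beyond the cluster did. The share of all AI-10-49 RUNX1 peaks for either condition was not computed, but is at least the 89.8% for DMSO regions. At +196, +432, +441, +448, +516 and +532 kb the RUNX1 summit itself lay inside no region of either list. Over the window, 16 of 21 (76.2%, exact Clopper-Pearson 52.8 to 91.8) overlapped an AI-10-49 region, against 86.1% of all AI-10-49 RUNX1 peaks. A DMSO region was overlapped by 15 of 21 (71.4%, 47.8 to 88.7), against 89.8% of all. The sites at +2458, +2513, +2543 and +2549 kb overlapped no region of either list, though the +2543 kb site ended 0.049 kb from one of AI-10-49. At +2485 kb the only overlapping acetylated region, chr8:131232633-131233107, was listed in AI-10-49 alone, with 44 H3K27ac fragments. Another region of AI-10-49 alone, chr8:131233296-131233681 (27 fragments), began just past the RUNX1 peak.

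The distance from the RUNX1 summit to the summit of its strongest overlapping H3K27ac region was between 150 and 400 bp at 13 of the 16 sites with an AI-10-49 region, where 58.4% of all such RUNX1 peaks had it. With DMSO regions it was so at 11 of 15 sites, against 60.9% of all. These bounds were chosen after the window's values were seen, so the higher shares of the window are a description only. Only 11 of the 21 RUNX1 summits were inside an AI-10-49 region, against 68.4% of all AI-10-49 summits. From +432 to +532 kb the RUNX1 summit was outside the AI-10-49 regions at 5 of 6 sites. At +516 kb it lay between a region that ended at 129263542 and one that began at 129263840 in DMSO. In AI-10-49 the same gap ran from 129263619 to 129263713. At +532 kb RUNX1 was likewise flanked on both sides in both conditions.

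H3K27ac fragments per M at the MYC promoter were lower in AI-10-49, while the deposited fold enrichment was not. The region over the promoter and gene, chr8:128746422-128752169, held 222 fragments at its summit in DMSO, 6.22 per M (5.43 to 7.09). In AI-10-49 it held 120, 3.24 per M (2.69 to 3.88), a ratio of 0.522 (0.414 to 0.654). Its deposited fold enrichment over local background was 14.2 in DMSO and 15.2 in AI-10-49. Fold enrichment divides by the local background, so that background was also lower at the AI-10-49 summit. Why it was lower was not tested. The width of the region was nearly the same, 5.75 and 5.61 kb, and the summit lay 972 bp further into the gene in AI-10-49. A small region of AI-10-49 alone, chr8:128752360-128752967, held 29 fragments at +4.88 kb.

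This ratio is read against other strong regions, since regions chosen by a high DMSO count had lower ratios than all regions together. Among the 11981 regions of the genome that were in both lists and had at least 100 DMSO fragments, the median ratio was 0.651 (quartiles 0.534 and 0.775). Of these, 53.2% were lower by at least 1.5-fold and 0.225% were higher by that much. The promoter ratio lay just below the lower quartile. In the window 20 regions had at least 100 DMSO fragments, and all 20 had fewer summit fragments per M in AI-10-49. The genome-wide share with fewer is not given here, but even the upper quartile of 0.775 was under 1. The count of 20 therefore does not set the window apart. Of these 20 regions, 13 (65%) were lower by at least 1.5-fold, and the median ratio was 0.625. As a group the strong regions of the window were thus near the genome-wide level.

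At the end of PVT1 nearest MYC the ratio was the lowest of the 101 regions in both lists. The region chr8:128806802-128809005, +59.6 kb from the MYC start, ends just before the PVT1 bound used here. It held 70 fragments in DMSO, an interval of 1.53 to 2.48 per M, and 25 in AI-10-49, 0.676 per M (0.437 to 0.998). The ratio was 0.345 (0.209 to 0.551), and the 2.2 kb region of DMSO was overlapped in AI-10-49 by separate pieces near its ends, chr8:128806862-128807444 (0.583 kb, 25 fragments) and chr8:128808708-128808938 (0.231 kb, 24 fragments). No RUNX1 site was listed there in either condition.

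Along PVT1 the strong elements had ratios from 0.601 to 0.82, with intervals that overlapped. The +182 kb element (chr8:128928713-128931071), which holds the RUNX1 site, had 3.87 H3K27ac fragments per M in DMSO and 2.33 in AI-10-49, giving a ratio of 0.601 (0.454 to 0.793). It also narrowed from 2.36 to 1.56 kb. The element at +155 kb (chr8:128901886-128903155), without RUNX1, had 2.8 and 2.3 per M, a ratio of 0.82 whose interval reached 1 (0.607 to 1.11). The strongest PVT1 element, at +313 kb (chr8:129058609-129062349), had 5.46 and 4.41 per M, a ratio of 0.807 (0.651 to 0.998). By deposited fold enrichment this element was higher in AI-10-49 (17.6 in DMSO, 21.0 in AI-10-49). The +182 kb element (12.0 and 8.0) and the +155 kb element (11.6 and 9.65) were lower by that measure too. The +313 kb element held the pair of AI-10-49 RUNX1 sites together with its neighbour chr8:129062470-129063287. In AI-10-49 the region chr8:129060164-129063558 overlapped both, so the ratio of 3.93 for the neighbour compares different summits. The first stretch of the +313 kb element was a separate AI-10-49 region, chr8:129058287-129060114 (52 fragments).

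Near +0.18 Mb the acetylated sequence was less than that of any other zone relative to DMSO. It came to 7.35 kb in 9 regions in DMSO and 3.41 kb in 6 regions in AI-10-49, giving a ratio of 0.464, and 5 of the 9 DMSO regions had no AI-10-49 counterpart, as had 29.0% of all DMSO regions. Such counts depend on the overlap asked for. Near +0.52 Mb there were 4 regions in each condition, 1.44 and 1.92 kb in all, and each DMSO region was in both lists. In DMSO the H3K27ac summits near +0.52 Mb held 0.56 to 1.04 per M, around the median of 0.813 of the whole list. In AI-10-49 they held 0.676 to 0.946 per M, around a whole-list median of 0.757. RUNX1 at +516 kb was in the top 3.08% of its list in AI-10-49. In DMSO it held 0.859 per M, below the median of 0.918 of that RUNX1 list. At +516 kb the H3K27ac summits held 0.813 and 0.703 per M, a ratio of 0.865 (0.489 to 1.52), which counting error does not separate from 1.

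The blood enhancer cluster held more acetylated sequence than all other zones together in DMSO, 81.7 of 147.7 kb. In AI-10-49 it held 67.8 of 143.2 kb. Within its 350 kb, 23.3% was covered in DMSO and 19.4% in AI-10-49, in 57 and 52 regions. Most of this was in 8 elements of 2.29 to 8.38 kb with at least 100 fragments in DMSO, which made up 64.5% of the acetylated sequence of the cluster. The other 49 DMSO regions were at most 1.85 kb wide.

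All 8 elements had fewer H3K27ac summit fragments per M in AI-10-49, with ratios from 0.524 to 0.698. Each upper bound was under 1, the highest being 0.868. The elements were chosen by a high DMSO count, which in itself favours ratios under 1. The share of strong regions genome-wide with such a bound is not given here. In DMSO their summits held 3.33 to 7.57 per M and in AI-10-49 2.16 to 4.95. The summits moved by 1 to 396 bp and stayed inside the DMSO elements. At +1930 and +1943 kb the shifts, 396 and 220 bp, exceeded the fragment lengths (192 bp in DMSO, 210 bp in AI-10-49). The summit counts of these elements thus came from different positions. By the 1.5-fold measure 7 of the 8 were lower, where 53.2% of strong regions genome-wide were. The deposited fold enrichment over local background did not fall at all of them. In AI-10-49 it was higher at +1856 kb (18.4 in DMSO, 23.6 in AI-10-49) and +1800 kb (10.9 and 12.1). At +1900 kb it was nearly level (12.7 and 12.1), and at the other elements it was lower. The lowest ratio of fragments per M was that of the +1943 kb element (chr8:130689985-130698360), with 6.25 (5.45 to 7.12) and 3.27 (2.71 to 3.91) per M. That element, the widest region of the window in DMSO, was split in AI-10-49. The largest piece, chr8:130690004-130694416, was 4.41 kb wide.

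**Figure D3:**
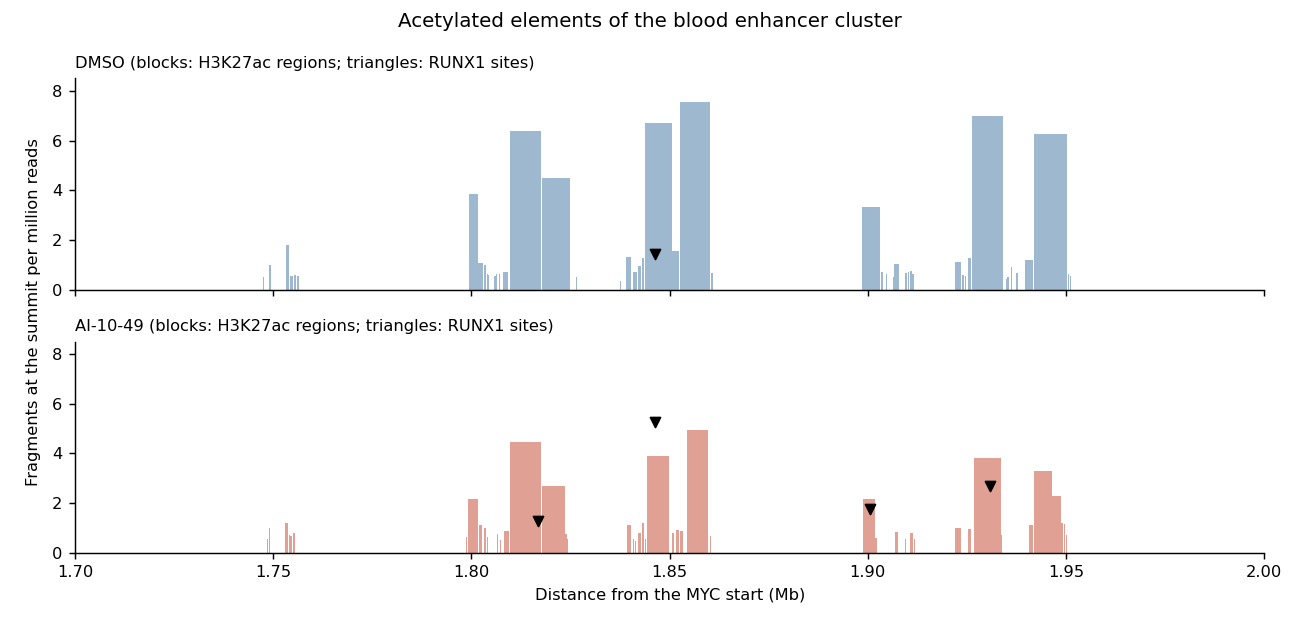
The main part of the blood enhancer cluster in DMSO (top) and AI-10-49 (bottom), with distance from the MYC start in Mb on the x axis and fragments at the summit per M reads on the y axis. Blocks are H3K27ac regions drawn to scale at the height of their summit, and triangles are RUNX1 sites. Each of the 8 wide blocks is lower in AI-10-49, and RUNX1 triangles number 1 in DMSO and 4 in AI-10-49.

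Of the 8 elements, 4 held a RUNX1 site in AI-10-49. This was an ordinary share, since 5405 of the 11981 strong regions of the genome in both lists held one. The +1811 kb element (chr8:130557719-130565634) held the +1817 kb site near its far end, 5824 bp from its DMSO summit, and had 6.39 and 4.46 H3K27ac fragments per M, a ratio of 0.698 (0.568 to 0.857). The +1846 kb element (chr8:130591779-130598588) held the strongest RUNX1 site and had 6.72 and 3.89 per M, a ratio of 0.579 (0.468 to 0.715). In the +1900 kb element (chr8:130646543-130651140) the values were 3.33 and 2.16 per M, a ratio of 0.649 (0.482 to 0.868). The +1930 kb element (chr8:130674331-130682196) had 7.0 and 3.81 per M, a ratio of 0.544 (0.44 to 0.672).

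The 4 elements without RUNX1, at +1800, +1821, +1856 and +1943 kb, had ratios of 0.563, 0.593, 0.654 and 0.524. The ranges of the elements with RUNX1 and without it overlapped. Over the window the same held: strong regions with a RUNX1 site had a median ratio of 0.625 (8 regions) and those without it 0.625 (12 regions). Genome-wide the medians were 0.674 and 0.63. These differences were not tested.

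Small regions of the cluster were often listed in DMSO alone, 21 of 57 (36.8%), while 5 of 52 (9.62%) were in AI-10-49 alone. These 21 were weak, at most 0.485 kb wide and at most 15.8 in −log10 q. In the whole window 44 of 145 DMSO regions (30.3%) and 29 of 141 AI-10-49 regions (20.6%) were in 1 list only. Genome-wide this was 29.0% and 21.0%, close to the window. The H3K27ac calls were made at the recovered depth of the smaller of the ChIP and input libraries. This was 27.6 M reads in AI-10-49 and 34.0 M in DMSO, and its part in these counts was not tested.

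The long stretch from +0.54 Mb to the cluster was nearly bare. In 1112 kb it held 6 DMSO regions (2.08 kb, 0.187% of the stretch) and 7 AI-10-49 regions (2.7 kb, 0.242%), and no RUNX1 site. None of these regions was in both lists (29.0% of all DMSO and 21.0% of all AI-10-49 regions were in 1 list only), and they held 16 to 40 fragments. The strongest, at +821 kb (chr8:129568640-129569610), held 40 fragments in DMSO. This stretch includes the NOTCH-bound MYC enhancer that is used in T-cell leukemia.

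**Figure D4:**
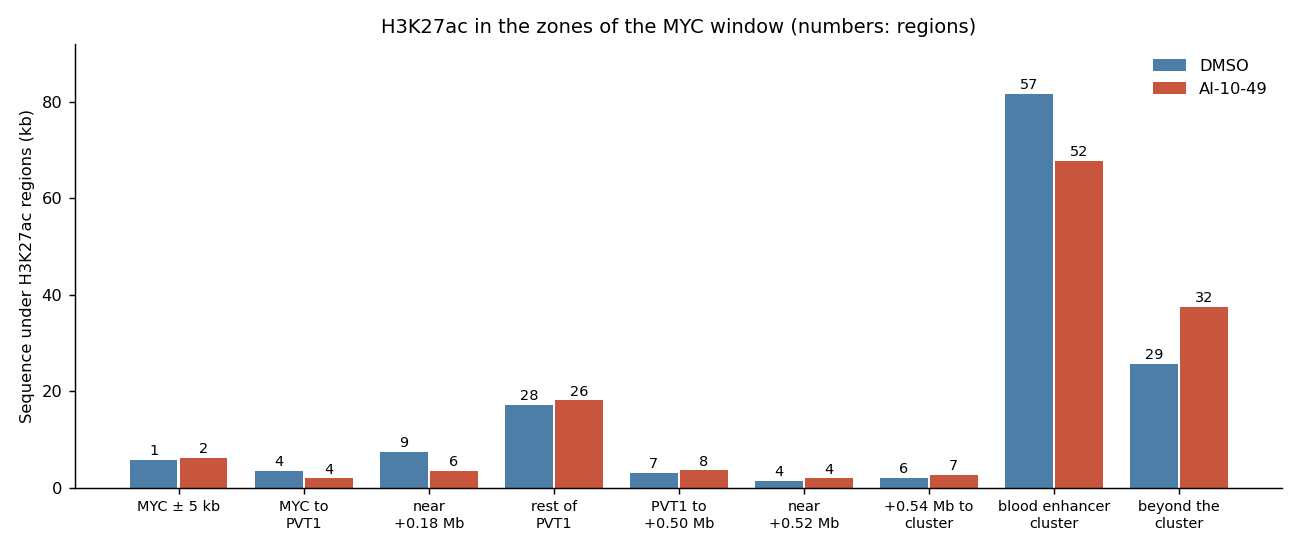
Sequence under H3K27ac regions in kb (y axis) in each zone of the MYC window (x axis) in DMSO and AI-10-49, with the number of regions above each bar. The bar of the blood enhancer cluster falls from 81.7 to 67.8 kb and the bar beyond the cluster rises from 25.6 to 37.5 kb.

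Beyond the cluster acetylated sequence was more in AI-10-49, 37.5 kb in 32 regions against 25.6 kb in 29, a ratio of 1.46. The rise came partly from wider regions. In AI-10-49 chr8:131004235-131010113 was a single region of 5.88 kb, where DMSO had a region of 2.65 kb (chr8:131006470-131009119) and smaller ones beside it, while the main summit was similar, 4.34 and 4.22 per M (ratio 0.971, 0.773 to 1.22). No counterpart was found for 1 of the 29 DMSO regions (29.0% genome-wide) and for 9 of the 32 AI-10-49 regions (21.0% genome-wide), the latter near the share of its whole list.

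Summits beyond the cluster ranged widely. The strongest of the window in both conditions, at +2204 kb (chr8:130951092-130953446), had 7.76 and 6.14 per M, a ratio of 0.791 (0.661 to 0.946), with the +2204 kb RUNX1 site. At +2307 kb (chr8:131054030-131055561) the values were 5.55 and 5.03 per M, a ratio of 0.906 (0.738 to 1.11). Only 2.99 kb further, at +2310 kb (chr8:131057569-131058799), they were 3.73 and 1.76 per M, a ratio of 0.472 (0.345 to 0.639). At least 100 DMSO fragments were found in 8 regions there, with a median ratio of 0.723, and in 12 regions from MYC to the cluster end, with a median of 0.597.

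Higher acetylation in AI-10-49 was seen at +2582 to +2588 kb. The regions chr8:131329639-131330171 and chr8:131330325-131331241 held 35 and 42 fragments in DMSO. In AI-10-49 1 region, chr8:131329536-131331784, held 77, which gives 2.08 per M against 0.981 and 1.18. A region of AI-10-49 alone, chr8:131335926-131336946, held 55 fragments, 1.49 per M, the highest −log10 q (26.9) of the 29 regions of that list alone. No RUNX1 site overlapped these regions.

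**Figure D5:**
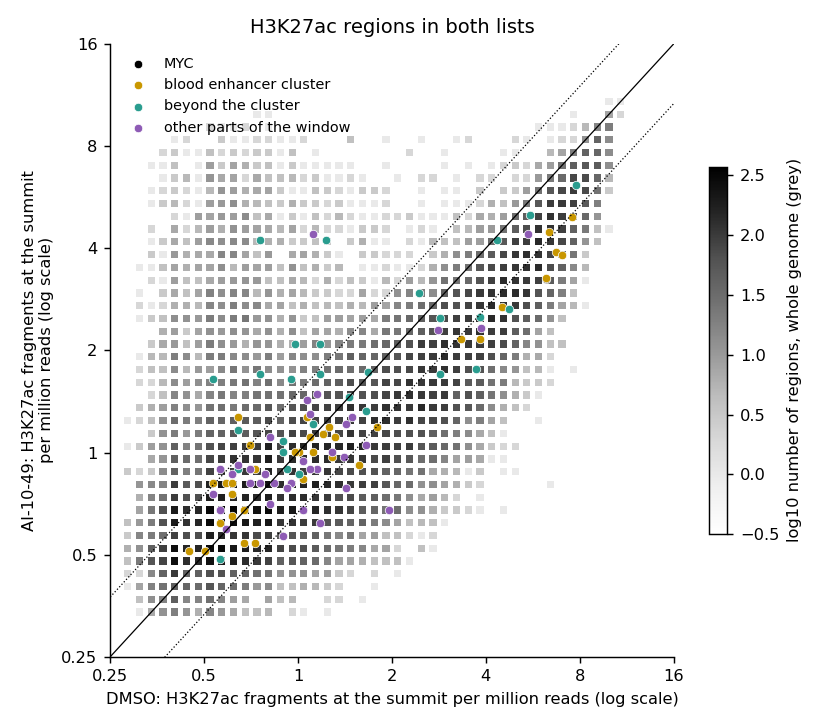
H3K27ac fragments at the summit per M reads in DMSO (x axis) and AI-10-49 (y axis) for regions in both lists, both axes on a log scale. Coloured points are the 101 regions of the window by zone, grey squares count the 47607 regions of the genome, the solid line marks equal values and the dotted lines a 1.5-fold difference. Strong regions, with MYC and the cluster among them, lie below the solid line.

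Over all 101 DMSO regions of the window in both lists, the median H3K27ac ratio was 0.965, against 0.838 genome-wide. By at least 1.5-fold 21 were lower (20.8%, genome-wide 29.1%) and 13 higher (12.9%, genome-wide 12.8%). In 22 of the 101 the AI-10-49 summit lay outside the DMSO region, mostly in a wider region, and 9 of the 13 higher values came from these. Among the other 79 the median was 0.858, with 20 lower and 4 higher. Genome-wide the same restriction gave a median of 0.772, with 34.5% lower and 4.86% higher. An AI-10-49 RUNX1 site was held by 18 of the 145 DMSO regions of the window (12.4%), and by 13.8% of all DMSO regions.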

How the data were processed

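Peak lists of 4 libraries were used (RUNX1 and H3K27ac, DMSO and AI-10-49). The 2 input libraries were not used here directly. Per the submitters' processing notes, which give no roles, the build was hg19 and the tools included MACS2 2.1.0 and Bowtie2 2.1.0. Peaks were listed per sample. The deposited ratio of each peak is the authors' fold enrichment at the summit over local background, and the deposited −log10 p and −log10 q are theirs too. The lowest −log10 q fits a q threshold of 0.05.

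Fragment numbers were recovered by solving fold enrichment and −log10 p together for a whole number of fragments (100% of peaks solved within 0.003 of their −log10 p). Library sizes follow from the lowest common background, an assumed genome size of 2700000000 bp and the shortest peak as fragment length. The recovery and overlap steps were tested on simulated data. Any overlap of 1 bp or more made peaks of both lists shared, and each DMSO peak was paired with the overlapping AI-10-49 peak of most fragments. Members, zones and lists were chosen with earlier results of these data known. Named regions were all RUNX1 peaks, H3K27ac regions with a RUNX1 peak or within 5 kb of the MYC start, the 3 widest of each list, the 3 with highest −log10 q per zone, and the 5 highest of each list only. Other named regions (the +1800, +1821 and +2310 kb regions and those at +2582 kb among them) were chosen after their values were seen. No hg19 annotation was at hand, so exon or intron positions and counts around other genes are not given, and sequences are not shown. Python 3.11.15, numpy 2.4.6, pandas 2.3.3, scipy 1.17.1 and matplotlib 3.10.9 were used.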

Additional observations from a re-analysis of the deposited data

How the results depend on the processing

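Of the alternatives tried, 40 in all, 30 stayed within 1.5 times of the reported value (or inside the interval of a share) and 10 moved. A −log10 q of at least 10 left 62 DMSO and 57 AI-10-49 H3K27ac regions in the window. H3K27ac regions in DMSO only (44) came to 88 when 50% of both intervals had to overlap, 74 with summits within 250 bp and 22 at a −log10 q of at least 5 against the full other list. For AI-10-49 only (29) these were 84, 71 and 9. The median RUNX1 ratio at the 4 shared sites (3.72) came to 1.77 relative to the genome-wide median, by construction. The share of AI-10-49 RUNX1 peaks in H3K27ac (76.2%) was 52.4% when the summit had to lie inside. The pairing from the AI-10-49 side, and the restriction to AI-10-49 summits inside the DMSO region, were chosen after seeing the data. They gave median H3K27ac ratios of 0.851 and 0.858 in place of 0.965. Division by the genome-wide median gave 1.15, on the other side of 1, since the median of the window lay above the genome-wide one. No RUNX1 count or covered length moved past 1.5 times. Gene lists around other loci were not run, for lack of an hg19 annotation. No paired analysis was possible because every antibody was used on 1 library per treatment.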
